A study of Bos taurus with 2 samples.

Results

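The genes described here are the glutathione, peroxiredoxin and thioredoxin antioxidants of bovine testis, with the superoxide dismutases and catalase. They were chosen by the gene names on the array. A probe was a member when its name began with GSTA, GSTM, GSTP, GSTO, GSTT, GSTK, MGST, GPX, PRDX or TXN, or was SOD1, SOD2, SOD3, CAT, GSR, GSS, GCLC or GCLM. This gave 117 of 51282 probes and 55 of 32429 gene names. The study set the testis of crossbred bulls (Bos taurus x Bos indicus, Holstein Friesian crossbreds with 50 to 75% exotic inheritance) against that of Zebu bulls (Bos indicus, Tharparkar breed), to look for transcripts that go with the sub-fertility of crossbred bulls. Each group was 3 bulls aged 24 months, with no treatment named other than the sedation and local anaesthesia for removal of the right testis, and slices from the middle of that testis gave the RNA. The RNA of the 3 bulls was pooled in equal amounts, labelled with the dye Cy3 and hybridized to 1 bovine array of 60-base probes per group. A pool of 3 bulls on 1 array has no replicate, so the differences below carry no p-value and no estimate of the spread between bulls.

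The arrays shared 1 slide and 1 scan, so slide and group were not confounded. Each group had its own pool, labelling and array, so effects of these cannot be told apart from group. The array is a Bos taurus design, and the match of its probes to Bos indicus transcripts was not tested. The signal of a probe is given as log2, relative to the 75th percentile of its array, and every difference is the crossbred value minus the Zebu value on that scale. A difference of 1.5 or more in size, which is 2.83-fold, was counted as higher or lower. The scanner software marked 72.0% of crossbred spots and 74.3% of Zebu spots as well above background, and a gene was counted as detected when its brightest probe was so marked on at least 1 array. Repeat spots of 5962 probes gave an SD of 0.29 for crossbred values, 0.18 for Zebu values and 0.33 for their difference. This SD covers spotting and scanning only, not labelling, pooling or bulls. The crossbred array had a dark patch of 544 spots with a median difference of -1.37 and a bright patch of 105 spots with a median of 1.29. The members had 125 spots, of which 2 lay in the dark patch, 1 of CAT and 1 of GPX5, and 0 in the bright patch. All detected markers of elongating spermatids, Leydig cells and Sertoli cells were well above background in both pools, so the defining markers of the labelled tissue were present.

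Glutathione is a tripeptide thiol that cells make with glutamate-cysteine ligase (GCLC and GCLM) and glutathione synthetase (GSS) and keep reduced with glutathione reductase (GSR). Glutathione S-transferases (GST) join it to reactive compounds, and glutathione peroxidases (GPX) spend it on peroxides. Peroxiredoxins (PRDX) remove peroxides with their own cysteines and are mostly recharged by thioredoxin (TXN) and thioredoxin reductase (TXNRD), while superoxide dismutases (SOD) and catalase (CAT) act on superoxide and hydrogen peroxide directly. In the testis these systems act in somatic cells that make steroids and in germ cells whose membranes are rich in polyunsaturated lipids, and some members are made mainly in spermatids.

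The sequences of the probes behind the largest differences are shown first, 5′ to 3′, because in the alpha GST class the reading of a gene depended on which probe was read. The array used the name GSTA3 for 4 probes. The 2 that recognise the transcript whose current symbol is GSTA3 in the ARS-UCD2.0 gene table lie at chr23:25714826-25714885 and chr23:25714568-25714627 of HGSC Btau_3.1, the build of the array annotation, on the minus strand. The 2 others recognise the transcript now called GSTA1 and lie at chr23:25657281-25659256, a span longer than the probe, which therefore crosses an intron of that build, and at chr23:25657179-25657238. The 2 GSTA5 probes, at chr23:25674112-25674171 and chr23:25674076-25674135, overlap each other, and the capitals mark the 24 bases they share. Probes at the end of a transcript are shown by 30 of their 60 bases, since these may lie outside the coding part.
GSTA3 probe at 25714826: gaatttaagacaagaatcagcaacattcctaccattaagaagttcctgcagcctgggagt
GSTA3 probe at 25714568, first 30 bases: taacgtgtccaaaaagaataaaaccatatt
GSTA1 probe at 25657281: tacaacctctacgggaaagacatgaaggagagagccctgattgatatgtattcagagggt
GSTA1 probe at 25657179: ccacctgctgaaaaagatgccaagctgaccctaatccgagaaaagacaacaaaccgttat
GSTA5 probe at 25674112, last 30 bases: gtttttATCTAAGTGTAGACCCTGGGTGTT
GSTA5 probe at 25674076, first 30 bases: ATCTAAGTGTAGACCCTGGGTGTTgagaga
Over all 32 pairs of alpha probes for different genes, the longest run of bases in common was 7. Pairs for the same gene that do not overlap, those of GSTA3, GSTA1 and GSTA4, shared no longer run. The run therefore does not show how specific a probe is, and the match of probes to the other alpha transcripts was not tested.

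The other members past the threshold are each shown by 1 probe. The GSTO2 probe lies at chr26:25128542-25128601 and the GSTT4 probe at chr17:74600220-74600279, both on the plus strand. The TXNDC8 probe shown lies at chr8:104876416-104876475 and the GPX5 probe at chr23:30297743-30297802, both on the minus strand. All positions are on HGSC Btau_3.1. The TXNDC8 probe shown is the dimmer of its detected probes, with a difference of 2.01. The brighter one, at chr8:104876410-104876469, shares 54 of the 60 bases with it.
GSTO2: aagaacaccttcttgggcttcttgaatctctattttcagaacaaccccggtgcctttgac
GSTT4: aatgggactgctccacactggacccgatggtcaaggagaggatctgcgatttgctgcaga
TXNDC8, last 30 bases: taagctgatctccaagacaaaatacacttg
GPX5, first 30 bases: cagaacatcctctgaaagataggctttccc

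Antioxidant genes differed between the pools by a small amount as a group and by a large amount in a few members. Of the 55 gene names, 53 were detected, and the 2 that were not, GCLC and GPX6, were not well above background on either array. Among the 53, 5 were higher in the crossbred pool by 1.5 or more, which were GSTA5, GPX5, TXNDC8, GSTO2 and GSTT4. Over all detected gene names 7.25% passed that threshold, so the share of members was near the background. No member was lower by 1.5 or more when 1 probe stood for a name, against 2.98% of all gene names. The median difference of the members was -0.14, and that of all 24758 detected gene names was -0.06. The difference was below 0 for 31 of 53 members and for 53% of all gene names. It was smaller than the spot SD of 0.33 for 17 of the 53 members and for 8611 of all gene names. In bulk testis, fewer cells of a type and less RNA per cell cannot be told apart.

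**Figure D1:**
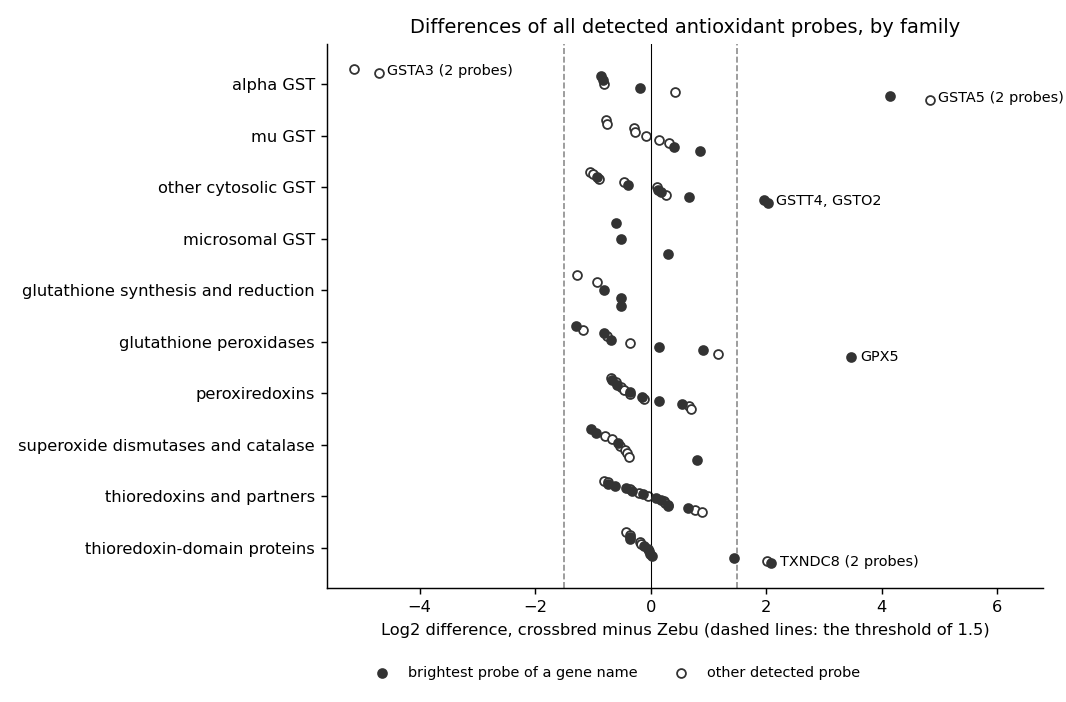
Log2 difference, crossbred minus Zebu, of all 106 detected member probes by family. Filled points are the brightest probe of a gene name, open points its other detected probes, and dashed lines mark the threshold of 1.5. Most probes lie between -1.3 and 1.2, and the labelled points, given by current symbol, lie outside the dashed lines. These are the 2 probes of the transcript now called GSTA3, 2 of GSTA5, 2 of TXNDC8 and 1 each of GSTT4, GSTO2 and GPX5, while the 2 array-named GSTA3 probes of GSTA1 lie inside.

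The count of lower members depended on whether a gene was its array name or its transcript. Read by accession, 60 transcripts were detected, of which 5 were higher, against 7.18% of all accessions, and 1, GSTA3, was lower, against 2.98%. Probe by probe, 106 of 117 were detected. Of these, 7 were higher, against 6.14% of all probes, and 2, both of GSTA3, were lower, against 2.99%. The difference was below 0 for 69 of the 106 member probes and for 54.6% of all probes. For the 32 member accessions with several probes well above background in both pools, the sign was the same in all probes of 28, and the median range between probes was 0.16. The SD between probes of a member accession was 0.26, below the 0.49 found over 7794 accessions of all kinds. By array name the range reached 5.55, for GSTA3, because that name holds 2 transcripts.

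The alpha class held both the highest and the lowest difference of all members. These cytosolic enzymes join glutathione to lipid peroxidation products, and GSTA3 is known in several mammals for isomerizing steroid intermediates on the way to progesterone and testosterone. The GSTA3 probe at 25714568 read -3.08 in the crossbred pool and 2.05 in the Zebu pool, a difference of -5.13 or 35.1-fold lower. The GSTA3 probe at 25714826, a separate place in the transcript, read -3.92 and 0.80, a difference of -4.71 or 26.2-fold lower. Each probe was well above background in both pools, and the crossbred value was far below the Zebu value in each. GSTA5, another alpha enzyme, ran the other way. Its brighter probe, at 25674076, read 1.66 in the crossbred pool and -2.48 in the Zebu pool, a difference of 4.14 or 17.6-fold higher. Its other probe, at 25674112, read 0.83 and -4.01, a difference of 4.84, but the pair is not independent because the probes overlap.

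The remaining alpha genes differed far less. The GSTA1 probe at 25657179 read 3.87 in the crossbred pool and 4.05 in the Zebu pool, and the one at 25657281 read 3.44 and 3.03, so their differences of -0.18 and 0.42 had opposite signs. GSTA2 read 1.58 and 2.44, a difference of -0.86. GSTA4, which acts on the lipid aldehyde hydroxynonenal, differed by -0.82 and -0.81 in its 2 probes. In the gene table these genes stand in the order GSTA2, GSTA1, GSTA5, GSTA3 and GSTA4 on chromosome 23. On the older build of the array the probes of GSTA5 and GSTA3, the members with opposite differences, lay 40.4 kb apart, and GSTA1 lay 16.8 kb from GSTA5. The median difference of the 18 spots nearest to each of the 4 GSTA5 and GSTA3 spots lay between -0.08 and 0.26, so the surrounding area of the array did not move with them.

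**Figure D2:**
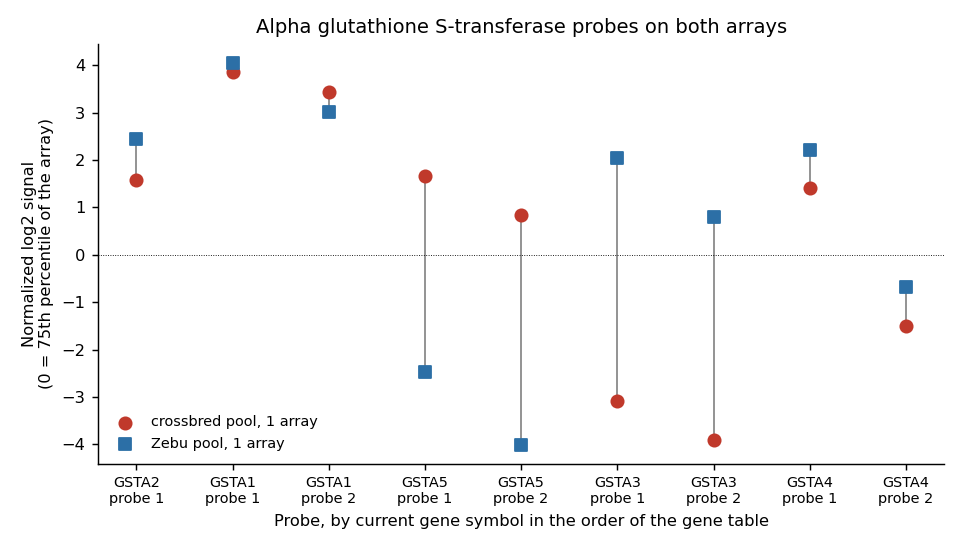
Normalized log2 signal of the 9 alpha GST probes on the crossbred array (circles) and the Zebu array (squares), with grey lines joining the values of a probe. The symbols are current ones, and the 2 GSTA1 probes carry the name GSTA3 on the array. GSTA5 is high in the crossbred pool, GSTA3 is high in the Zebu pool, and GSTA1, GSTA2 and GSTA4 differ by less than 0.9.

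Leydig cells, the steroid-making cells of the testis, are a known site of steroid isomerizing enzymes, so their markers are given beside GSTA3. All 6 Leydig markers were detected and all 6 differed below 0, with a median of -0.79 and a range from -1.77 for HSD3B1 to -0.10 for LHCGR. Their summed linear signal, in units of the 75th percentile, was 87.8 in the crossbred pool and 133 in the Zebu pool. Most of each sum came from INSL3, which read 6.25 in the crossbred pool and 6.69 in the Zebu pool, a difference of -0.44. The GSTA3 difference was larger in size than that of each of the 6 markers. The part of Leydig cell content in the GSTA3 difference was not tested.

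The theta and omega classes repeated the pattern of neighbouring genes with unlike differences. GSTT4, a theta class enzyme, read 5.08 in the crossbred pool and 3.11 in the Zebu pool, a difference of 1.97 or 3.92-fold higher. GSTT1, the theta enzyme best known for acting on small halogenated compounds, lay 10.5 kb away on chromosome 17 and differed below 0 in all 4 probes, by -0.93, -0.99, -1.04 and -0.89. Its brightest probe read 3.88 and 4.81. The theta gene named GSTT3 on the array, now GSTT2, was 7.5 kb further on and differed by 0.66. In the omega class, GSTO2, which reduces dehydroascorbate, read 2.48 in the crossbred pool and 0.46 in the Zebu pool, a difference of 2.03 or 4.07-fold higher. GSTO1, its neighbour at 21.9 kb on chromosome 26, read 1.91 and 1.78, a difference of 0.13 and below the spot SD. GSTO2, GSTT4, GSTT3 and GSTO1 had 1 probe each, so only the spot SD bears on them.

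The mu, pi, kappa and microsomal transferases stayed within the threshold. GSTM3, a mu enzyme of testis and sperm, read 7.15 in the crossbred pool and 6.75 in the Zebu pool, a difference of 0.40, with 0.32 in its second probe. The name GSTM1 covered several mu transcripts. Of its 5 probes for the transcript now called LOC327709, the brightest read 1.41 and 0.55, a difference of 0.85, and the others differed by 0.15, -0.08, -0.27 and -0.28. The mean over all 7 detected GSTM1 probes was -0.16, so the sign for this name depended on the probe. The 2 probes of LOC783879, also named GSTM1, differed by -0.77 and -0.75, and the GSTM1 probes for LOC615514 and for an expressed sequence tag were not well above background. GSTP1, the pi enzyme, differed by -0.39 and -0.45. GSTK1, the mitochondrial and peroxisomal kappa enzyme, differed by 0.18, 0.11 and 0.26. Among the membrane-bound MGST enzymes, MGST3 had the lowest difference, -0.61, MGST1 differed by -0.51 and MGST2 by 0.30.

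The genes that make and reduce glutathione all differed below 0 where they were detected, with none past the threshold. GSR read 1.60 in the crossbred pool and 2.42 in the Zebu pool, a difference of -0.82, with -1.27 in its second probe. GSS read -1.80 and -1.29, a difference of -0.51, and a dimmer probe differed by -0.92. GCLM, the modifier subunit of glutamate-cysteine ligase, read 0.29 and 0.81, a difference of -0.51. GCLC, the catalytic subunit, had 1 probe, which was not well above background on either array, so the rate-limiting step of glutathione synthesis has no reading of its catalytic gene here.

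**Figure D3:**
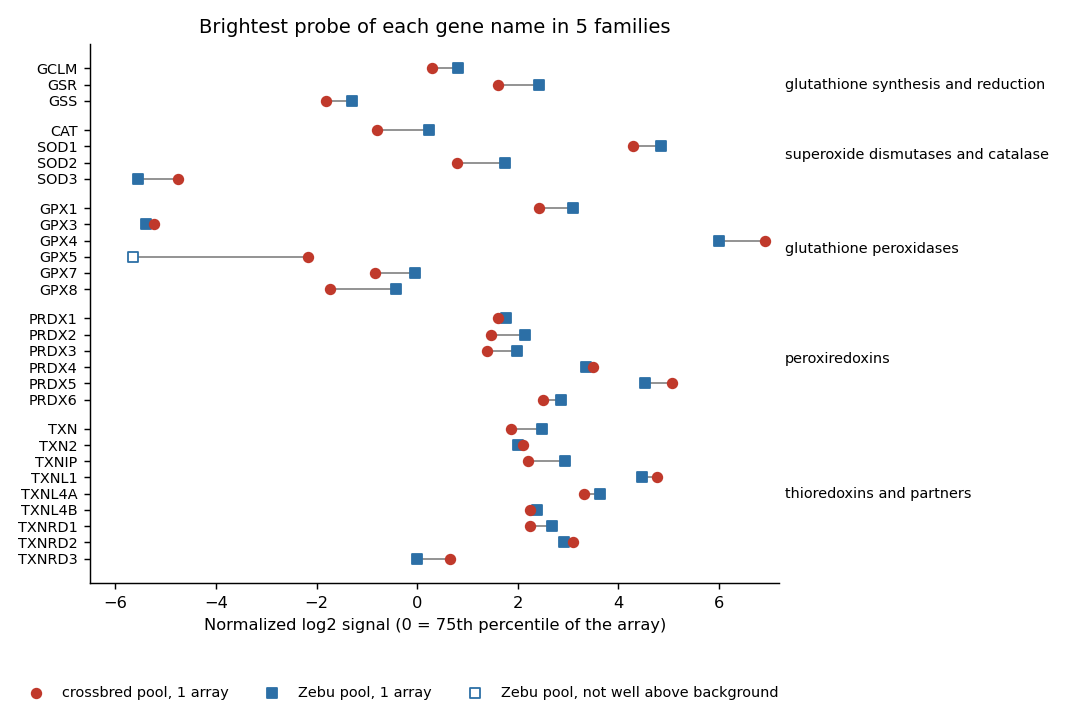
Normalized log2 signal of the brightest probe of each detected gene in the families of glutathione synthesis and reduction, superoxide dismutases and catalase, glutathione peroxidases, peroxiredoxins and thioredoxins with their partners. Circles are the crossbred array, squares the Zebu array and the open square a value not well above background. Levels of different probes are not comparable. The widest gap is that of GPX5, followed by GPX8 and CAT.

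Among the glutathione peroxidases only GPX5 was past the threshold. GPX4 differed above 0 in both probes, while GPX1, GPX7 and GPX8 differed below 0 in every probe. GPX4, the selenoenzyme that reduces lipid hydroperoxides and forms part of the sperm mitochondrial capsule, read 6.92 in the crossbred pool and 6.0 in the Zebu pool. Its difference of 0.91 was accompanied by 1.17 in its second probe. GPX1, the general cytosolic selenoenzyme, read 2.42 and 3.1, a difference of -0.68, with -0.76 in its second probe. Another GPX1 probe lies at the same place on the opposite strand and differed by -0.35. GPX8, an enzyme of the endoplasmic reticulum, read -1.73 and -0.43, and its difference of -1.30 was the lowest of the member names. A second GPX8 probe, which overlaps the first, differed by -1.18. GPX7, also of the endoplasmic reticulum, differed by -0.81. GPX3, the secreted plasma enzyme, was near the limit of detection, with 1 of 4 probes detected, at -5.24 and -5.39.

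GPX5, the selenium-independent enzyme known from epididymal secretion, had 1 probe with 2 spots. In the crossbred pool the spots read -2.39 and -1.96, and in the Zebu pool -5.84 and -5.45. The crossbred spots were both above the Zebu spots. The first of each pair lay at the place of the dark patch, and its Zebu value was not well above background. The mean difference was 3.47, or 11.1-fold higher in the crossbred pool with the Zebu value entered as a bound. That fold is not a minimum, because it depended on the background correction. Without the spot in the patch the difference was 3.49. With normexp background correction it was 1.89, still past the threshold. Of the 8 epididymis markers 5 were on the array by name, and 3 of them were detected. CST8, DEFB103B and SPAG11B were all higher in the crossbred pool, by 2.87, 2.22 and 1.99. Their summed signal was 6.73 against 1.07. Most of each sum came from CST8, which read 2.43 in the crossbred pool and -0.44 in the Zebu pool. The second probes of SPAG11B and DEFB103B differed by 0.75 and 0.97, and that of CST8 by 2.98. LCN9 and RNASE10 were not well above background on either array. The part of epididymal tissue in the GPX5 difference was not tested.

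The superoxide dismutases of the cytosol and mitochondria differed below 0 without passing the threshold. SOD1, the cytosolic copper and zinc enzyme, read 4.29 in the crossbred pool and 4.85 in the Zebu pool, a difference of -0.56, with -0.45, -0.54 and -0.66 in its other 3 probes. SOD2, the mitochondrial manganese enzyme, read 0.80 and 1.74, a difference of -0.94, with -0.79 in its second probe. The agreement of sign over 6 probes did not extend to SOD3, the extracellular enzyme, which read -4.75 and -5.54 near the limit of detection, and its difference of 0.80 was 0.32 with normexp background correction. CAT, which breaks down hydrogen peroxide in peroxisomes, read -0.80 and 0.23, a difference of -1.03, but the spot of this probe lay in the dark patch, where the 18 nearest spots had a median of -1.25. The 2 detected CAT probes outside the patch differed by -0.37 and -0.42, and the gene read without the patch differed by -0.38.

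Of the 6 peroxiredoxins 4 differed below 0 and 2 above 0, with differences between -0.68 and 0.54 by their brightest probe. PRDX5, found in mitochondria, peroxisomes and cytosol, read 5.07 in the crossbred pool and 4.52 in the Zebu pool, a difference of 0.54, with 0.71 and 0.66 in its other probes. PRDX4, the enzyme of the endoplasmic reticulum, differed by 0.15, less than the spot SD. PRDX2, a cytosolic enzyme, read 1.47 and 2.15, a difference of -0.68, with -0.60 in its second probe. PRDX3, which is confined to mitochondria, read 1.39 and 1.98, a difference of -0.59, and a probe of the same name for a clone on chromosome 8 differed by -0.35. PRDX6, which also has phospholipase activity, differed by -0.36 in its brightest probe, and its 4 other probes ranged from -0.68 to -0.12. PRDX1 differed by -0.15.

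In the thioredoxin system no member passed the threshold. TXN, the cytosolic thioredoxin, had 2 spots that read 1.87 and 1.85 in the crossbred pool and 2.39 and 2.57 in the Zebu pool. The Zebu spots were both above the crossbred spots, and the difference was -0.62. TXNIP, the protein that binds and inhibits thioredoxin, read 2.20 and 2.93, a difference of -0.73, with -0.74 and -0.81 in its other 2 probes for the reference transcript. The remaining TXNIP probe, for another clone, differed by -0.04. The mitochondrial pair of TXN2 and TXNRD2 read 0.10 and 0.18 higher in the crossbred pool, and their second probes 0.24 and 0.26, all below the spot SD. TXNRD1, the cytosolic reductase, differed by -0.43 in its brightest probe and by 0.78 in a dimmer one, so its sign depended on the probe, and the mean of both was 0.17. TXNRD3, the reductase with a glutaredoxin domain that is abundant in testis, read 0.64 and 0.00 in its brightest probe, a difference of 0.64, and 0.89 in the other. The thioredoxin-like genes TXNL1, TXNL4A and TXNL4B differed by 0.30, -0.32 and -0.14.

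TXNDC8 and TXNDC3 stood apart from the other thioredoxin-domain genes. TXNDC8, the thioredoxin of spermatids and the acrosome, read 4.0 in the crossbred pool and 1.91 in the Zebu pool, a difference of 2.09 or 4.27-fold higher. Its overlapping second probe, the one whose sequence is shown, read 3.63 and 1.63, a difference of 2.01. A further probe, for an expressed sequence tag, was not well above background. TXN lay 34.1 kb away on chromosome 8 and, as given above, differed by -0.62. TXNDC3, now called NME8 and known from the sperm tail and motile cilia, read 0.45 and -1.0, a difference of 1.45 that stayed just under the threshold, while GSTT4 with 1.97 was the nearest member above it. The other 7 TXNDC genes lay between -0.36 and 0.02, with the lowest value in TXNDC15 and the smallest difference, -0.00, in TXNDC11.

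All 8 elongating spermatid markers were detected and all differed above 0, with a median of 1.81, and 6 of the 8 were higher by 1.5 or more. PRM1, the protamine, had the smallest difference, 0.36, and SPEM1 the largest, 2.92, and the summed signal of the list was 529 in the crossbred pool and 272 in the Zebu pool. The 5 detected spermatocyte markers differed by 0.14 to 0.84. The differences of TXNDC8 and NME8, both known from spermatids, lay within the range of the spermatid markers. So did those of GSTO2, GSTT4, GPX4, GSTM1, SOD3, GSTT3, TXNRD3, PRDX5 and GSTM3 by their brightest probe. The range, from 0.36 to 2.92, is wide, so lying within it does not set a member apart. The part of spermatid content in these differences was not tested. Of the 6 detected Sertoli cell markers 5 differed below 0, with a median of -0.74. The 5 detected macrophage markers had a median of 0.20, with 1, AIF1, higher by 1.95. Of the red blood cell markers 2 were detected, HBA with -2.15 and AHSP with 0.09.

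**Figure D4:**
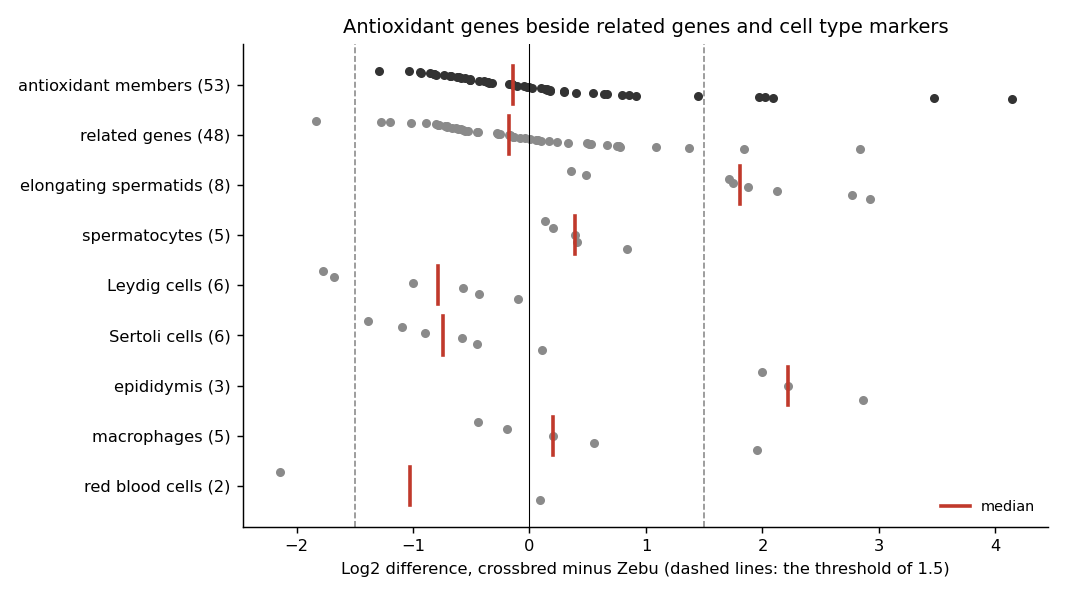
Log2 differences, crossbred minus Zebu, of the 53 detected member genes, 48 related genes and 7 lists of cell type markers, each point 1 gene read from its brightest probe. Red bars are medians, and the number of genes stands in parentheses. The median is -0.14 for members, 1.81 for elongating spermatid markers, -0.79 for Leydig cell markers and 2.22 for the 3 epididymis markers.

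Genes of the same pathways that were not members were read in the same way. Of 49 listed, NME8 is a member under its array name, and the other 48 were all detected. Their median difference was -0.17, with 30 below 0, and 2 were higher by 1.5 or more. SLC7A11, the cystine importer that feeds glutathione synthesis, read -1.83 in the crossbred pool and -4.67 in the Zebu pool, a difference of 2.84 from 1 probe. GLRX2, the mitochondrial glutaredoxin, read 3.27 and 1.43, a difference of 1.84, with 1.2 in its second probe. Neither lay in a marked patch.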

How the data were processed

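RNA of 3 crossbred and 3 Zebu bulls was pooled by group and measured on 1 Agilent Bos taurus array per pool. Groups were taken from the sample titles. The authors deposited the intensity of each spot as processed by Feature Extraction 11.5, background-subtracted and, per the file headers, not normalized between arrays, with the mean spot and median local background intensity. They also deposited log2 values of each probe, made in GeneSpring 12.6 with a shift to the 75th percentile. These had medians of -3.00 and -3.01 and correlated with the scanner values by 0.999 and 1.000.

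Here control spots and 13 outlier spots of 61657 were left out, and 0 spots were saturated. Spots of a probe were averaged as log2 intensity, less the array's 75th percentile, a signal of 1176 (crossbred) and 1233 (Zebu). The median local background was 34 and 35.5. Each gene name was represented by its brightest probe. The brighter array had to be well above background, and a dim array entered a fold as a bound, not below the lowest value well above background (-5.78 crossbred, -5.94 Zebu). The number of arrays limits the precision, and no test was possible with 1 array per group. The threshold of 1.5 was read on the log2 scale of the authors' methods.

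Accessions were given current symbols through the ARS-UCD2.0 gene table, where 56 of 65 member accessions matched. The members and lists were chosen with earlier results of these data known. Named were all members past the threshold by any detected probe, the SOD, CAT, GPX, PRDX, TXN, TXN2, TXNRD, TXNIP and glutathione synthesis and reduction genes, the alpha, mu and omega transferases, members in a patch, in each other family the largest rise, the largest fall and the smallest difference, and related genes past the threshold. A few genes covered by this rule are left out of the text. Alternatives tried were normexp correction (offset 50), other shifts between arrays, quantile normalization, the deposited log2 values, other filters on dim probes, other rules for the probe of a gene, other thresholds, and the patches left out. One value per accession was an alternative chosen after seeing the data. The steps were tested on simulated data, with known differences put only into gene names with a single probe well above background on both arrays. Recovery of differences in names with several probes or in dim values was not tested. Python 3.11.15 with numpy 2.4.6, pandas 2.3.3, scipy 1.17.1 and matplotlib 3.10.9 were used, with limma 3.58.1 in R 4.3.3. The study's real-time PCR was not analysed here.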

Additional observations from a re-analysis of the deposited data

How the results depend on the processing

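The number of member genes higher in the crossbred pool was 5 under normexp background correction, the other shifts between arrays, quantile normalization, the authors' log2 values, no filter on dim probes, the mean of all detected probes, the patches left out and 1 value per accession, the last chosen after seeing the data. It was 4 with only probes well above background on both arrays, where GPX5 dropped out, 7 with every detected probe counted, 6 with a threshold of 1, 4 with a threshold of 2 and 11 with a linear fold of 1.5. The number lower was 0 in most settings, 1 with the mean of all detected probes, 2 with every detected probe and 1 with 1 value per accession, all from GSTA3. It was 2 with a threshold of 1 (CAT and GPX8) and 14 with a linear fold of 1.5. The brightest CAT probe lay in the dark patch, and with the patches left out CAT differed by -0.38. Among all 24758 detected gene names, 3206 were higher and 2209 lower at the threshold of 1. The looser linear cut-off took in 5322 of these names as higher and 5515 as lower. The median difference of members was -0.14 as reported and lay between -0.34, with every detected probe, and -0.14 over the alternatives. By the mean of its probes GSTA3 differed by -2.40, CAT by -0.61, GSTA5 by 4.49, GSTM1 by -0.16 and TXNRD1 by 0.17. Over all gene names, normexp background correction gave 1048 higher and 173 lower, against 1795 and 737. Under normexp background correction GPX5 differed by 1.89 and SOD3 by 0.32, and both have a value near the limit of detection in the Zebu pool. No paired analysis was possible because each group has 1 array.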

Other observations

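Several genes that flank the alpha GST genes on chromosome 23 of ARS-UCD2.0 were read by their brightest probe, as values that belong to no comparison above. On the GSTA2 side, TMEM14A differed by -0.73, TRAM2 by -0.96, PAQR8 by -0.20 and MCM3, a replication licensing factor, by -0.61. On the GSTA4 side, CILK1, a kinase of cilia, differed by -1.10, FBXO9 by -0.27, GCM1 by 0.11 and ELOVL5, a fatty acid elongase, by 0.52. None of these genes passed the threshold of 1.5 by this probe.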
